A study of Rattus norvegicus with 10 samples.

Results

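The transcripts of 8 transcription factors that set up and maintain the lens lineage were followed through the response of rat lens epithelial explants to FGF2: Pax6, Six3, Sox2, Sox1, Foxe3, Pitx3, Prox1, and Hsf4. They were chosen by name, and a probe set was taken when the annotation of the array gave it the symbol of a member alone, which yielded 12 probe sets for the 8 genes out of 31042 probe sets tested and 14217 genes named on the array. Sox2 had 4 probe sets, Prox1 had 2, and each of the other members had 1. The study profiled explants from 3-day-old rats, in which the epithelial cells stay on a piece of the capsule, pooled at 6 per assay and held overnight at 5 ng/mL FGF2 (0 hr), after which they received 100 ng/mL FGF2 for 2, 4, 12, or 24 hr. It asked which transcripts respond early (2 and 4 hr) and late (12 and 24 hr) as epithelial cells turn into fiber cells. Each of the 5 time points had 2 arrays, 10 in all, the labels name no strain, transgene, or mutation, and none of the arrays came from explants left at 5 ng/mL for as long, so FGF2 dose and time in culture cannot be told apart.

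The lens is made of a single sheet of epithelial cells on its anterior side and of elongated fiber cells, which form when epithelial cells near the equator meet the FGF of the vitreous, leave the cell cycle, and fill with crystallins. Pax6 and Six3 are homeodomain factors needed to make the lens placode, and Sox2, of the SOXB1 family, joins Pax6 on lens enhancers in chick and mouse. In the mouse lens Foxe3 and Pitx3 keep the epithelium proliferating, whereas Prox1, Sox1, and Hsf4 act as cells elongate and mature into fibers.

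The deposited values were intensities normalized by the robust multichip average (RMA), taken here to log2. Each change is a difference of time point means on that scale, with a standard error (SE) from a limma model that estimates the spread of a probe set from all 10 arrays, so 1 SE holds for every time of a probe set, with n = 2 arrays per time point. A transcript was called higher or lower where its p, adjusted by the Benjamini-Hochberg method over all 31042 probe sets, was under 0.05, and "rose" and "fell" are used only of called changes. The intensity of a probe set depends on its probes as well as on its transcript, so levels are compared only within a probe set, and brightness among probe sets is given only to pick 1 probe set per gene and to mark dim signals.

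The lens epithelial markers, 8 genes that include Cdh1 (E-cadherin), Cryaa (αA-crystallin), and the members Pax6 and Foxe3, all lay above the median of every array, as did 7 of 12 measured lens fiber markers, while 7 of 7 measured retina markers lay below it. As these set different probe sets side by side, they describe the arrays and do not test what cells they held. The summed intensity of 6 measured vascular markers was 885 to 977 on the 24 hr arrays, against 1490 to 1880 on the 0 hr arrays, and 4 of them fell at 24 hr, whereas Kdr rose at 12 hr (1.21) and was at 0.67 at 24 hr, not called. Krt12, a keratin of the corneal epithelium, rose at every time, by 2.80, 3.74, 5.25, and 4.76 on the log2 scale at 2, 4, 12, and 24 hr, whereas Tkt, another of the 6 measured corneal markers, fell at 4, 12, and 24 hr (−0.47, −0.74, and −0.74), and 3 of the 6 lay below the median on every array. The summed intensity of the 6 was 16600 to 18900 at 24 hr, against 21000 to 21100 at 0 hr. Most of that sum came from the markers Clu and Tkt. Their log2 intensities were at least 13.50 and 12.03 on every array, whereas Krt12 reached at most 10.61. Of 7 macrophage markers none was called against 0 hr, of 7 fibroblast markers 1 rose, at 4 hr, and 7 of 8 markers of pigmented and ciliary epithelium lay below the median on every array. The log2 ratio of the 5′ to the 3′ control probe sets of Actb (β-actin), a measure of how complete the labeled RNA is, was −2.13 to −1.37 at 2 and 4 hr and −1.88 to −1.3 at 12 and 24 hr, against −1.21 and −1.12 at 0 hr. Numbers in the names of the arrays place the 2 and 4 hr arrays far from the rest and the 0 hr arrays outside the sequence of the 12 and 24 hr arrays, but no source used here says whether these ranges of numbers were separate runs. If they were, run and time could be told apart only between 2 and 4 hr and between 12 and 24 hr. In explants, fewer cells of a type and less RNA per cell cannot be told apart.

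Against 0 hr, 6 of the 8 members were called at 1 time or more by their brightest probe set, and 9 of the 12 probe sets were, among them the dimmer one of Prox1, beside 40.8% of all probe sets, and at each time members were called in both directions. By the brightest probe set of each gene, at 2 hr 1 member was higher and 2 were lower, with 8.61% of all probe sets called higher and 8.88% lower. At 4 hr 1 member was higher (11.9% of all probe sets) and 2 were lower (11.9%). At 12 hr 2 were higher (8.94%) and 1 was lower (10%), and at 24 hr 1 was higher (9.29%) and 3 were lower (10.9%). The median change of the members was −0.11, −0.06, 0.22, and 0.11 at the 4 times, where that of all probe sets was −0.003, −0.021, 0.018, and 0.026. The time courses differed from factor to factor, as the plot of the levels on each array shows. The 4 comparisons share the 0 hr arrays.

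**Figure D1:**
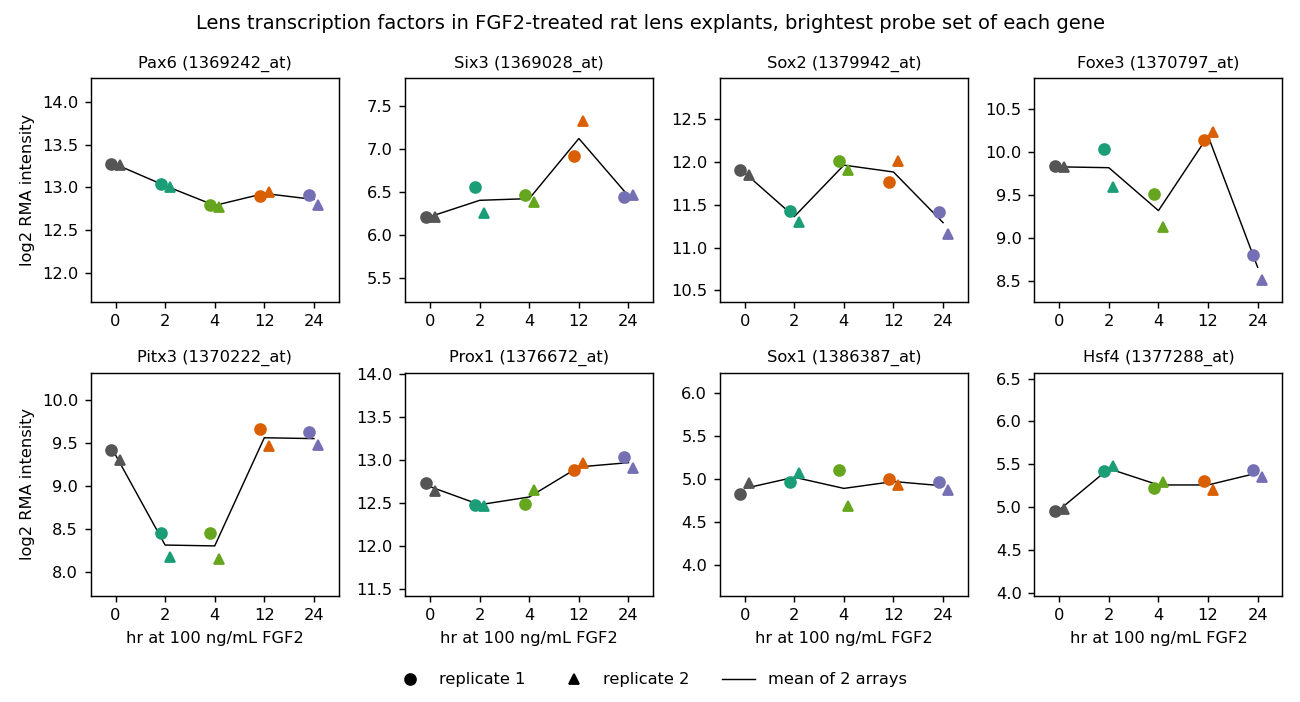
Log2 RMA intensity (vertical axis, each panel spanning the same number of log2 units) of the brightest probe set of each member on each array against the hours at 100 ng/mL FGF2 (horizontal axis, times evenly spaced); circles are replicate 1, triangles replicate 2, and the line joins the means of 2 arrays. Pitx3 had its lowest levels at 2 and 4 hr (8.15 to 8.45), Foxe3 at 24 hr (8.51 and 8.80), Six3 its highest at 12 hr (6.92 and 7.32), and Sox1 kept between 4.68 and 5.10.

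Pax6, the paired-box factor at the top of the eye program, fell at 4, 12, and 24 hr. Its probe set (1369242_at) had log2 intensities of 13.27 and 13.26 at 0 hr, 13.04 and 13.00 at 2 hr, 12.80 and 12.77 at 4 hr, 12.90 and 12.95 at 12 hr, and 12.91 and 12.80 at 24 hr. Both 0 hr arrays lay above all the later ones, the arrays at 4 and 24 hr overlapped, and so did those at 24 and 12 hr. The change was −0.25 at 2 hr (SE 0.08, adjusted p = 0.074), which was not called, and then −0.48 at 4 hr (0.0034), −0.34 at 12 hr (0.02), and −0.41 at 24 hr (0.0084), so that at 4 hr the intensity was 71.7% of that at 0 hr. Between 4 and 2 hr the difference was −0.23 (adjusted p = 0.18), and between 24 and 12 hr it was −0.07 (0.77), with a 95% interval of −0.26 to 0.12. The 2 hr change and the difference between 4 and 2 hr were called under 3 alternatives. These were unadjusted p, a trended and robust prior, and the methods' analysis of variance, run here on the 2 sides of each comparison alone. The 4 hr fall was called under every alternative, whereas the 12 hr call was lost without either 0 hr array (−0.34) or without replicate 1 (−0.32) or 2 (−0.36) of 12 hr, and the 24 hr call without either 0 hr array (−0.41), without replicate 2 of 24 hr (−0.35), or with the Actb ratio as a covariate (−0.37).

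Six3, the homeodomain factor that acts with Pax6 in the placode, was high at 12 hr. The 250 bases before its transcription start are shown because the match to the CCAAT box, searched as CCAAT on both strands and given in capitals, occurred 3 times in them, where 2.52% of the 33469 RefSeq promoters of the GRCr8 build held 3 or more (chr6:14796257-14796506 on the minus strand).
Six3: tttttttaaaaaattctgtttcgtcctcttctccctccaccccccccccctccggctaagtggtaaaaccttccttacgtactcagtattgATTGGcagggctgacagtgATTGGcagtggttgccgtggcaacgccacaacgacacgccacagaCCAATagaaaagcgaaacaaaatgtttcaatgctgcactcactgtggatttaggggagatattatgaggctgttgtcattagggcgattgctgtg
The matches began 159, 140, and 95 bases before the start, and they are a description of the letters and not of a site in use. The Six3 probe set (1369028_at) had 6.20 and 6.21 at 0 hr, 6.55 and 6.25 at 2 hr, 6.46 and 6.38 at 4 hr, 6.92 and 7.32 at 12 hr, and 6.44 and 6.46 at 24 hr on the log2 scale. The 12 hr arrays stood above all others, the 0 hr arrays below all others, and the arrays at 2, 4, and 24 hr overlapped one another. Against 0 hr the change was 0.19, 0.21, 0.91, and 0.24 at 2, 4, 12, and 24 hr (SE 0.14), of which the 12 hr rise was called (adjusted p = 0.0028, 95% interval 0.58 to 1.24) under every alternative. At 24 hr the level fell to 62.8% of that at 12 hr (−0.67, adjusted p = 0.037), but this call was lost without either 0 hr array (−0.67), without replicate 2 of 12 hr (−0.47), without replicate 1 (−0.66) or 2 (−0.68) of 24 hr, with the Actb covariate (−0.59), with a replicate block, and with the methods' analysis of variance.

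Sox2, the SOXB1 factor that pairs with Pax6 on lens enhancers, fell at 2 hr by 3 of its 4 probe sets, and by the brightest of them it fell again at 24 hr. The bases before its start (chr2:119464881-119465130 on the plus strand of GRCr8, from RefSeq) are shown with an octamer, searched as ATGCAAA on both strands and found in 4.08% of promoters, and a CCAAT box on the other strand, found in 34% of promoters, both in capitals.
Sox2: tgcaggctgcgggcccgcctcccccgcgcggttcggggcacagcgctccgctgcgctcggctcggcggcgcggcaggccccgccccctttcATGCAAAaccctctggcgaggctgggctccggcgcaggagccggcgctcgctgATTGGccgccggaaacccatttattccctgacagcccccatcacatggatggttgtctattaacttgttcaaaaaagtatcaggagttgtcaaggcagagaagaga
The octamer began 159 and the CCAAT box 106 bases before the start, and this stretch had 64.4% G and C, against a median of 51.2% over all promoters. The brightest probe set (1379942_at) had 11.90 and 11.84 at 0 hr, 11.43 and 11.30 at 2 hr, 12.01 and 11.90 at 4 hr, 11.76 and 12.01 at 12 hr, and 11.41 and 11.16 at 24 hr. The arrays at 2 and 24 hr overlapped and lay below all others, and those at 0, 4, and 12 hr lay close together. Its change was −0.51 at 2 hr (SE 0.12, adjusted p = 0.022), 0.09 at 4 hr (0.66), 0.01 at 12 hr (0.96), and −0.58 at 24 hr (0.01). It was thus higher at 4 hr than at 2 hr (0.60, adjusted p = 0.033), the 1 member called higher (2.24% of all probe sets) while none was called lower (1.5%) between these times.

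The other probe sets of Sox2 differed in the size of the early fall. Probe set 1381874_at had 9.40 and 8.91 at 0 hr, 8.39 and 8.24 at 2 hr, 8.69 and 8.97 at 4 hr, 9.39 and 9.74 at 12 hr, and 8.62 and 8.66 at 24 hr, a change of −0.84 at 2 hr (SE 0.18, adjusted p = 0.014) with −0.32, 0.41, and −0.52 at the later times, which were not called. Probe set 1375153_at had 8.0 and 7.18 at 0 hr, 4.96 and 5.17 at 2 hr, 6.04 and 5.99 at 4 hr, 7.76 and 8.47 at 12 hr, and 6.71 and 6.83 at 24 hr. Both 2 hr arrays of these probe sets lay below all their other arrays, and the 0 and 12 hr arrays overlapped. The change of 1375153_at was −2.53 at 2 hr (SE 0.28, adjusted p = 0.00074) and −1.58 at 4 hr (0.0039), to 17.4% and 33.5% of the 0 hr intensity, and then 0.52 at 12 hr and −0.82 at 24 hr, not called. The dimmest, 1389826_at, brighter than 7.29% of all probe sets, lay between 3.45 and 4.07 on all arrays and was not called at any time. Across the 10 arrays the first 3 had Pearson correlations of 0.70, 0.48, and 0.90 with one another and 0.11 to 0.60 with the dimmest, which describes how far they run together. All 3 fell at 24 hr relative to 12 hr, by 0.60 (adjusted p = 0.03), 0.93 (0.026), and 1.34 (0.032).

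**Figure D2:**
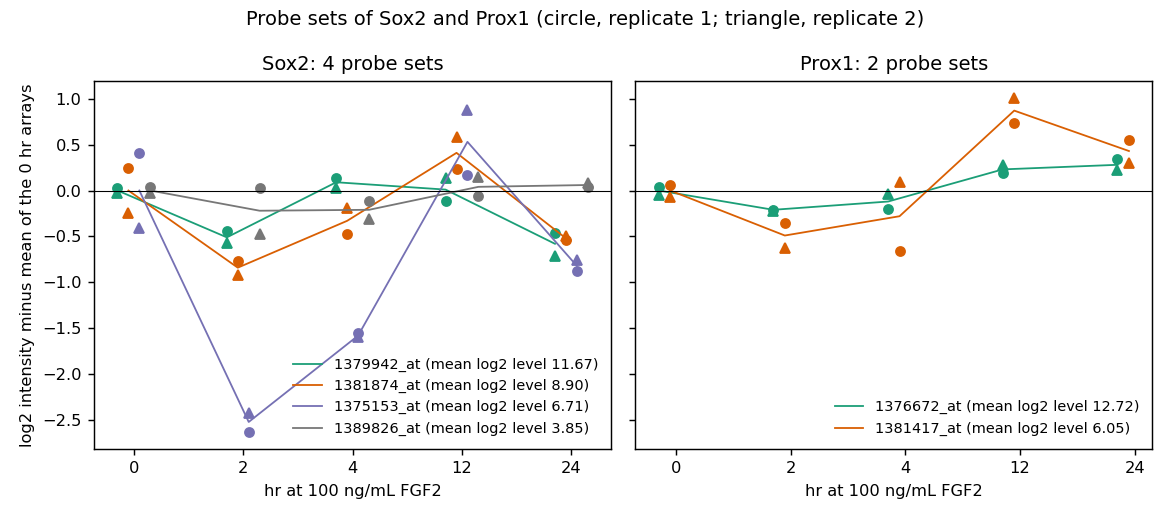
Log2 intensity minus the mean of the 0 hr arrays (vertical axis) for the 4 probe sets of Sox2 (left) and the 2 of Prox1 (right) at each time (horizontal axis, hr at 100 ng/mL FGF2, times evenly spaced); circles and triangles are replicates 1 and 2 and lines join the means. At 2 hr the Sox2 probe sets lay at −0.51, −0.84, −2.53, and −0.23, and at 12 hr those of Prox1 at 0.23 and 0.87.

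The 2 hr fall of 1375153_at was called under every alternative. That of the brightest Sox2 probe set was lost without either 0 hr array (−0.48 and −0.54), without replicate 2 of 2 hr (−0.44), and with the Actb covariate (−0.37). Its 24 hr call was lost without either 0 hr array (−0.55 and −0.61), without replicate 2 of 24 hr (−0.46), with that covariate (−0.46), and with the mean of all 4 probe sets (−0.47). That of 1381874_at at 2 hr was lost without replicate 1 of 0 hr (−0.59) or replicate 2 of 2 hr (−0.77), and with that covariate (−0.98). With the methods' analysis of variance the calls of 1381874_at at 2 hr, of 1375153_at at 4 hr, and of 1379942_at and 1375153_at at 24 against 12 hr were lost. With the mean of all 4 probe sets in place of the brightest, Sox2 was at −0.51 at 4 hr and called. The differences between 12 and 24 hr were lost on leaving out single arrays of those times, with values of −0.72 to −0.47 for 1379942_at, also lost without either 0 hr array, −1.10 to −0.75 for 1381874_at, and −1.41 to −0.99 for 1375153_at (without replicate 2 of 12 hr or either replicate of 24 hr), and all 3 with the Actb covariate (−0.51, −1.01, and −1.4). The 4 hr rise of 1379942_at over 2 hr was lost without either 0 hr array (0.60), either 2 hr array (0.53 and 0.66), or replicate 1 of 4 hr (0.54).

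Sox1, the SOXB1 relative that activates γ-crystallin genes in mouse fiber cells, was not called at any time. Its probe set (1386387_at), brighter than 25.3% of all probe sets, had 4.83 and 4.95 at 0 hr, 4.96 and 5.07 at 2 hr, 5.10 and 4.68 at 4 hr, 5.00 and 4.93 at 12 hr, and 4.96 and 4.87 at 24 hr. The arrays of the times overlapped, except that both 2 hr arrays lay just above both 0 hr arrays. The changes were 0.13, 0.00, 0.08, and 0.03 (SE 0.14), and the 95% interval at 24 hr, −0.28 to 0.33, spans changes in either direction. How much of so dim a signal is background was not tested.

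Foxe3, a forkhead factor that marks the lens epithelium and whose loss in the dysgenetic lens mouse stops its proliferation, had its lowest level at 24 hr. The bases before its start (chr5:133683267-133683516 on the minus strand of GRCr8, from RefSeq) held 1 CArG box, the site of serum response factor, which 1.5% of promoters hold and which is in capitals.
Foxe3: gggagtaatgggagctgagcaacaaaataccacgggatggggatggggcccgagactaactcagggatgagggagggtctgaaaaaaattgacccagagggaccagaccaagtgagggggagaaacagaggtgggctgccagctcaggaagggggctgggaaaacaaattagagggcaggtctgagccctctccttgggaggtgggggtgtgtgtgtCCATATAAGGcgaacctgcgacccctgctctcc
The match began 33 bases before the start and is likewise a description of the letters. The Foxe3 probe set (1370797_at) had 9.84 and 9.83 at 0 hr, 10.04 and 9.59 at 2 hr, 9.51 and 9.13 at 4 hr, 10.14 and 10.24 at 12 hr, and 8.80 and 8.51 at 24 hr. Both 24 hr arrays lay below all others and both 12 hr arrays above all others, while the 2 hr arrays lay on either side of the 0 hr arrays. Against 0 hr the change was −0.02 at 2 hr (SE 0.18, adjusted p = 0.96), −0.51 at 4 hr (0.067), 0.36 at 12 hr (0.22), and −1.18 at 24 hr (0.0021). Between the 12 and 24 hr arrays, whose numbers form 1 range, Foxe3 fell at 24 hr to 34.5% of its 12 hr intensity (−1.53, 95% interval −1.93 to −1.13, adjusted p = 0.0037). With Foxe3, Six3, and Sox2, 3 of the 8 members fell between these times (2.12% of all probe sets) and none rose (2.22%).

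Both falls of Foxe3 at 24 hr were called under every alternative, although with the Actb ratio as a covariate that against 0 hr was −0.75. Beside them, 4 of the 8 lens epithelial markers fell at 24 hr against 0 hr (10.9% of all probe sets) and none rose (9.29%). The 4 were Foxe3 and Pax6 themselves, Cdh1 (−0.70), and the basement membrane collagen Col4a1 (−0.46). The others, Cryaa (0.13), Cryab (0), Itgb1 (0.29), and Pdgfra (−0.29), were not called. Of the 12 measured lens fiber markers, 1 rose and 1 fell at 2 hr (8.61% and 8.88% of all probe sets). At 4 hr 1 rose and 4 fell (11.9% each). None rose at 12 hr (8.94%) or 24 hr, whereas 5 fell at 12 hr (10%) and 1 at 24 hr. From 12 to 24 hr 2 rose (2.22%), Mip (2.01) and Bfsp2 (0.91), and 1 fell (2.12%), Crygd (−0.88). The summed intensity of the 8 epithelial markers was 80100 to 80800 at 24 hr, against 88400 to 89000 at 0 hr. The part of these markers, and of the vascular ones given above, in the result was not tested.

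Pitx3, the homeodomain factor that the aphakia mouse lacks in its lens, fell at 2 and 4 hr, while its levels at 12 and 24 hr lay just above those at 0 hr and were not called. The 250 bases before its start (chr1:254955326-254955575 on the minus strand of GRCr8, from RefSeq) are shown as the most G- and C-rich of the promoters of the 5 members matched, with 76%, a share that 97.1% of promoters lie below.
Pitx3: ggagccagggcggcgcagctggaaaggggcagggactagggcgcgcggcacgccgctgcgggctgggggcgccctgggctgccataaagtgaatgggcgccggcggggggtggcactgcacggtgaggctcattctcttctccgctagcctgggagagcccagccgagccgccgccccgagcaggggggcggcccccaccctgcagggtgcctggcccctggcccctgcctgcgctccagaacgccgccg
None of the motifs searched in the members' promoters on both strands was in this window. These were CCAAT, the TATA box as TATAAA (12.9% of promoters), the CArG box, the AP-1 site TGANTCA (6.34%), the SOX core ACAAT (30%), the bicoid core TAATCC (6.34%), the heat shock element GAANNTTC (7.23%), and ATGCAAA. The SOX core occurred once in the promoter of Pax6, the fifth member matched.

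The Pitx3 probe set (1370222_at) had log2 intensities of 9.42 and 9.30 at 0 hr, 8.45 and 8.17 at 2 hr, 8.45 and 8.15 at 4 hr, 9.66 and 9.46 at 12 hr, and 9.63 and 9.47 at 24 hr. All 4 arrays at 2 and 4 hr lay below all other arrays, the arrays at 2 and 4 hr overlapped, and so did those at 12 and 24 hr. The change was −1.05 at 2 hr (SE 0.14, adjusted p = 0.0019) and −1.06 at 4 hr (0.0011), to 48.3% and 48.1% of the 0 hr intensity, and 0.20 and 0.19 at 12 and 24 hr (0.41 at both). Between 4 and 2 hr the difference was 0.00 (95% interval −0.33 to 0.32), and between 24 and 12 hr it was −0.01 (−0.33 to 0.32). The early falls were called under every alternative, although with the Actb ratio as a covariate that at 2 hr was −0.65. With that covariate the 24 hr change was 0.54 and was called. The 2 and 4 hr arrays have numbers far from those of 0, 12, and 24 hr, and the part of this in the result was not tested.

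**Figure D3:**
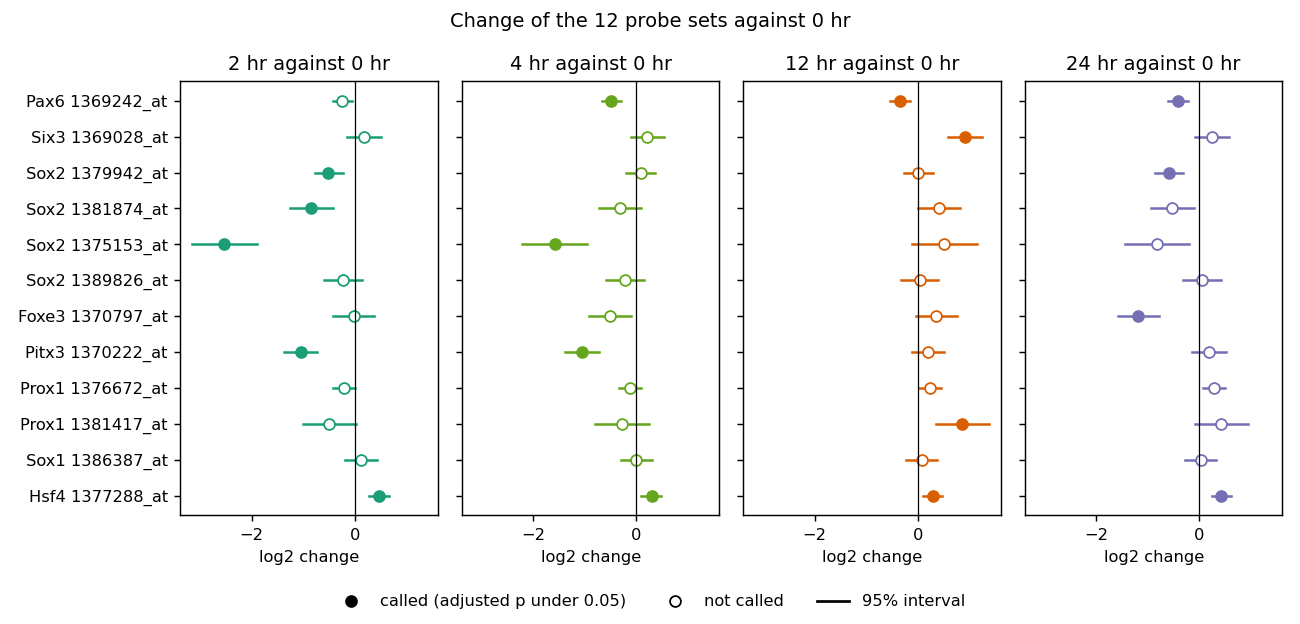
Log2 change against 0 hr (horizontal axis) of the 12 probe sets (rows) at 2, 4, 12, and 24 hr (panels); filled points were called at an adjusted p under 0.05 over all probe sets, open points were not, and bars are 95% intervals from the limma fit. At 2 hr 4 probe sets lay below 0 and were called, among them 1375153_at of Sox2 at −2.53 and Pitx3 at −1.05.

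Prox1, the homeodomain factor that mouse fiber cells need to elongate, was higher in the late than in the early mean by both of its probe sets. The difference was 0.42 for the brighter probe set and 1.03 for the dimmer. This contrast was added after the values were seen, and its arrays have numbers far apart. The brighter (1376672_at) had 12.73 and 12.64 at 0 hr, 12.48 and 12.47 at 2 hr, 12.49 and 12.65 at 4 hr, 12.88 and 12.97 at 12 hr, and 13.03 and 12.91 at 24 hr. The arrays at 12 and 24 hr overlapped and lay above all others, but none of the changes against 0 hr was called, at −0.21, −0.12, 0.23, and 0.28 (SE 0.09, adjusted p = 0.17, 0.43, 0.13, and 0.066). The 24 hr change was called with unadjusted p, a trended and robust prior, median centring (0.31), without the dimmest 1 in 3 probe sets, and without the 2 and 4 hr arrays. That at 12 hr was called with unadjusted p, with that prior, and as the mean of both probe sets (0.55), and that at 2 hr with the methods' analysis of variance. The dimmer (1381417_at) had 6.01 and 5.88 at 0 hr, 5.60 and 5.32 at 2 hr, 5.29 and 6.04 at 4 hr, 6.68 and 6.96 at 12 hr, and 6.50 and 6.25 at 24 hr. It rose at 12 hr (0.87, SE 0.23, adjusted p = 0.028), with −0.49, −0.28, and 0.43 at 2, 4, and 24 hr, which were not called. Across the 10 arrays the probe sets had a correlation of 0.92, given as a description. The 12 hr rise of 1381417_at was lost without either 0 hr array (0.94 and 0.81) or either 12 hr array (1.01 and 0.74). Its 24 hr change (0.43) was called with the compared groups alone and without the 2 and 4 hr arrays. Its 4 hr change was −0.66 without replicate 2 of 4 hr.

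Hsf4, a heat shock factor that in mouse fiber cells drives Dnase2b, the nuclease that clears their DNA, rose at all 4 times. Its probe set (1377288_at), brighter than 30.7% of all probe sets, had 4.96 and 4.98 at 0 hr, 5.42 and 5.48 at 2 hr, 5.23 and 5.29 at 4 hr, 5.31 and 5.20 at 12 hr, and 5.44 and 5.35 at 24 hr. Both 0 hr arrays lay below all later ones, the arrays at 4 and 12 hr overlapped, and so did those at 2 and 24 hr. As for Sox1, the part of background in this dim signal was not tested. The change was 0.48 at 2 hr (SE 0.09, adjusted p = 0.0066), 0.30 at 4 hr (0.036), 0.29 at 12 hr (0.046), and 0.43 at 24 hr (0.0081). Without replicate 1 of 0 hr the 2 hr call was lost (0.47), and the 24 hr call was lost without either 0 hr array (0.42 and 0.44) or replicate 1 of 24 hr (0.39). The 4 and 12 hr calls were lost without either 0 hr array (0.28 to 0.30) or either array of the time itself (0.24 to 0.34), that at 4 hr also without either 12 hr array (0.30) and that at 12 hr without either 24 hr array (0.29), and the calls at all 4 times were lost with the Actb covariate (0.26 to 0.43). Those at 4 and 12 hr were also lost with the fold minimum, with a trended and robust prior, and with a replicate block, that at 4 hr with the compared groups alone, and that at 12 hr with quantile normalization (0.27).

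The late mean (12 and 24 hr) was also set against the early mean (2 and 4 hr), a contrast added after the values were seen. By the brightest probe set 3 of the 8 members were higher in the late mean (19.9% of all probe sets) and none was lower (19.3%), and the median over the members was −0.01. The 3 were Pitx3 (2.38-fold, with a 95% interval of the log2 difference of 1.02 to 1.48, adjusted p = 3.5e-05), Prox1 (0.42 on the log2 scale, adjusted p = 0.0011), and Six3 (0.37, adjusted p = 0.018). Among the dimmer probe sets, 1375153_at of Sox2 was higher by 1.90 (adjusted p = 0.00012), 1381874_at of Sox2 by 0.53 (0.01), and 1381417_at of Prox1 by 1.03 (0.0011), whereas the brightest of Sox2 was at −0.08 (0.53), and with the mean of all 4 probe sets Sox2 was at 0.66 and called. The mean of Six3 was 7.12 at 12 hr but 6.45 at 24 hr, close to 6.40 and 6.42 at 2 and 4 hr. For Six3 and for 1381874_at the late and early arrays overlapped. The call of Six3 was lost without replicate 2 of 2 hr (0.30), of 12 hr (0.27), or of 24 hr (0.37). The calls of Six3 and of 1381874_at were lost with the methods' analysis of variance. For this contrast it pooled 12 with 24 hr and 2 with 4 hr, so differences between the pooled times counted as spread. All late arrays have numbers far from those of the early arrays, and whether they were separate runs is not stated.

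The factors were then placed among 35 other transcription factors and cofactors of the lens and eye, of which 26 were measured. At 2, 4, 12, and 24 hr the numbers that rose were 2, 5, 7, and 4, the numbers that fell were 2, 7, 3, and 3, and the medians were −0.09, −0.11, 0.04, and 0.01. Over all probe sets, 8.61%, 11.9%, 8.94%, and 9.29% were called higher and 8.88%, 11.9%, 10%, and 10.9% lower. Of those called with a log2 change of at least 1, Sox3, the remaining SOXB1 gene, rose at 4, 12, and 24 hr (1.43, 2.45, and 1.80, SE 0.28). Its intensities were 6.29 and 6.30 at 0 hr, 6.97 and 6.18 at 2 hr, 8.09 and 7.36 at 4 hr, 8.62 and 8.88 at 12 hr, and 8.20 and 7.99 at 24 hr. All 6 arrays from 4 hr on thus lay above both 0 hr arrays, while Sox1 and Sox2 were not called higher than at 0 hr at any time. Gata3, a zinc finger factor that fiber cells need to leave the cell cycle in the mouse, rose at 12 and 24 hr (1.28 and 1.35, SE 0.20), and its 4 arrays of these times, at 9.73 to 9.95, lay above the 0 hr arrays at 8.77 and 8.31.

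Six4, of the same family as Six3, rose at 2, 4, and 12 hr by 1.3, 0.99, and 0.74 (SE 0.17), with 0.49 at 24 hr (adjusted p = 0.079). Mab21l1, a gene downstream of Pax6 in the mouse lens placode, fell at all 4 times, at −0.55, −1.06, −0.75, and −0.93 (SE 0.09). Meis2, a homeodomain factor upstream of Pax6 in the mouse lens placode, fell at 4, 12, and 24 hr (−1.52, −0.53, and −0.55, SE 0.14), and the retinoic acid receptor Rarb at 2, 4, and 12 hr (−0.59, −1.49, and −0.50, SE 0.10). The AP-2 factor Tfap2a, which the lens epithelium needs, fell at 4 and 24 hr (−0.75 and −1.11, SE 0.15), and Dach1, a cofactor that works with Eya proteins, fell at 4 hr (−1.0, SE 0.26).

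**Figure D4:**
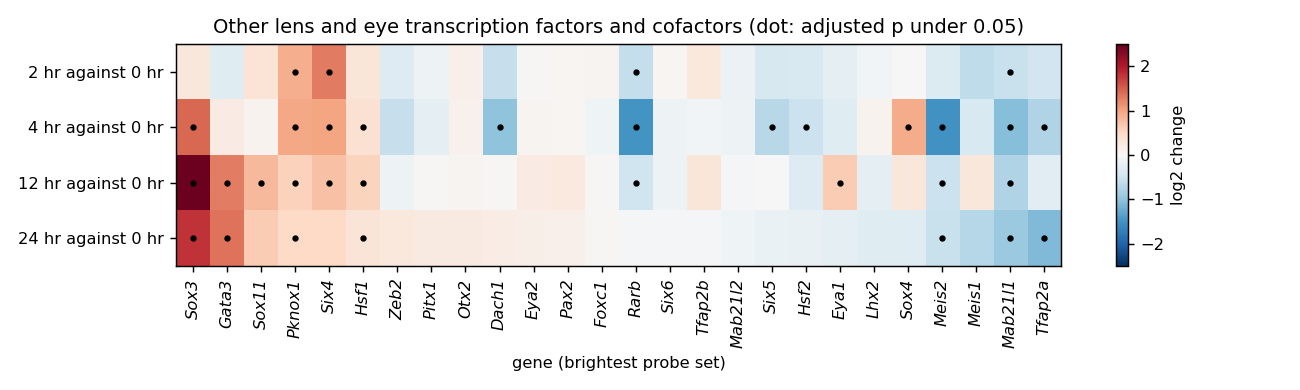
Log2 change against 0 hr (color, blue lower and red higher) of the 26 measured transcription factors and cofactors of the lens and eye other than the members (columns, ordered by the change at 24 hr) at each time (rows); dots mark an adjusted p under 0.05. Sox3 stood at 2.45 at 12 hr and Meis2 at −1.52 at 4 hr.

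Of 26 genes listed from general knowledge as downstream of the members in the mouse lens, 24 were measured. The numbers that rose were 2, 2, 1, and 1 at the 4 times, the numbers that fell were 3, 8, 10, and 7, and the medians were −0.15, −0.22, −0.36, and −0.31, beside shares of all probe sets of 8.61% to 11.9% higher and 8.88% to 11.9% lower. Dnase2b, the target of Hsf4, rose at 2 and 4 hr (0.90 and 1.19, SE 0.22) and was at 0.12 and 0.18 at 12 and 24 hr, which were not called. Fgfr1, an FGF receptor, rose at all 4 times (0.65, 1.07, 0.66, and 0.77, SE 0.12). Mip, the water channel of fiber cells, fell at 4 and 12 hr (−1.44 and −1.92, SE 0.42), with its 12 hr arrays far apart at 7.36 and 5.72. Its 24 hr arrays, at 8.46 and 8.64, lay beside the 0 hr arrays, at 8.32 and 8.61. Bfsp2, a subunit of the beaded filament of fiber cells, fell at 4 and 12 hr (−1.19 and −1.21, SE 0.19) with −0.30 at 24 hr, not called. Crygs (γS-crystallin) fell at 12 hr (−1.76, SE 0.42) after 1.39 and 1.14 at 2 and 4 hr, which were not called, with 9.74 and 10.87 on the 2 hr arrays.

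The genes whose pattern over the 10 arrays was most like that of each member probe set called at 1 time or more were sought among 3220 probe sets of 1 gene whose time point means span at least 1 on the log2 scale, by Pearson's r, a description without a p, since all share the arrays. For Pax6 these were Mab21l1 (0.988), the PAR leucine zipper factor Hlf (0.98), and Phactr1 (0.976), and Hlf stood at −1.15, −2.63, −1.69, and −1.88 at 2, 4, 12, and 24 hr. For Six3 they were Cebpa (0.961), Lrrn3 (0.959), and the angiotensin receptor Agtr1b (0.945), the last at 3.98 at 12 hr and 1.91 at 24 hr. For Foxe3 they were the guidance ligand Slit2 (0.965), the protocadherin Fat3 (0.92), and the cadherin Cdh11 (0.911), at −0.81, −0.93, and −0.89 at 24 hr. For Pitx3 they were the DNA repair enzyme Alkbh2 (0.994), Nipsnap1 (0.984), and Pigt (0.977), and Alkbh2 stood at −1.5 and −1.35 at 2 and 4 hr and at 0.49 and 0.50 at 12 and 24 hr.

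For the brightest probe set of Sox2 the most alike were asparagine synthetase, Asns (0.882), the cationic amino acid transporter Slc7a3 (0.875), and the thyroid hormone receptor Thrb (0.861). Asns stood at −1.58 and −1.95 at 2 and 24 hr and Slc7a3 at −2.31 and −3.29. For 1381874_at they were probe set 1375123_at of Sox4 (0.903), Zfp704 (0.89), and Draxin (0.889), and for 1375153_at they were Nek1 (0.944), Mfsd9 (0.943), and Eeig2 (0.939), so each of the 3 had other genes nearest to it. For 1381417_at of Prox1 they were the kinesin Kif5c (0.97), the integrin Itga1 (0.957), and Marcks (0.955), at 0.83, 0.86, and 0.86 at 12 hr. For Hsf4 they were Cdc42ep4 (0.904), the heparan sulfate sulfotransferase Hs6st1 (0.903), and Atrx (0.896), and Cdc42ep4 stood between 1.4 and 1.5 at all 4 times.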

How the data were processed

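Total RNA of lens explants was amplified from 50 ng, labeled, and hybridized to Affymetrix rat arrays. The intensity values were normalized by the authors with RMA (version not given in the sources used here) and deposited on a linear scale; the type of array named in the text differs from that in the names of the arrays. The values were taken to log2 without further normalization, and 57 array controls were left out of 31099 probe sets. The platform annotation gave 1 symbol to 20826 probe sets, several to 436, and none to 9780. In R 4.3.3 with limma 3.58.1, lmFit and eBayes were run with 1 mean per time point (5 residual degrees of freedom, prior degrees of freedom 3.69, prior SD 0.116), and the script was tested on simulated data. A gene stands by its brightest probe set. The number of arrays, 2 per time point and described as biological replicates, limits the precision. The members and lists, written from general knowledge of the lens, were chosen with earlier results of these data known. From the lists of other factors and of downstream genes, those called with a log2 change of at least 1 were named, at most 8 per list, and for each member probe set called at 1 time or more the 3 genes most like it. Promoter sequences, matched by symbol for 5 of 8 members, came from RefSeq (GRCr8), and the plots came from matplotlib 3.10.9 (Python 3.11.15). The alternatives were unadjusted p, a fold minimum of 1.25, a trended and robust prior, quantile normalization, median centring, omission of the dimmest 1 in 3 probe sets, a fit of the compared groups alone, the analysis of variance of the methods with P left unadjusted, the mean of all probe sets of a gene, a replicate block, and each array left out in turn. The analysis of variance took each comparison as 2 groups, a form that the paper does not state. Added after the data were seen were the Actb covariate and a fit that leaves out all 2 and 4 hr arrays.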

Additional observations from a re-analysis of the deposited data

Results flagged for a closer look

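These results are listed because a test of the difference between 2 times, or between the late and the early phase, passed the threshold. The effects of the times then differ from each other. Of all probe sets, 3.73% passed between 4 and 2 hr, 4.34% between 24 and 12 hr, and 39.2% between the late and the early mean. The last contrast was added after the values were seen. For the brightest probe set of Sox2 (1379942_at) the difference was 0.60 between 4 and 2 hr and −0.60 between 24 and 12 hr. Between 24 and 12 hr it was −0.93 for 1381874_at and −1.34 for 1375153_at of Sox2, −1.53 for Foxe3, and −0.67 for Six3. Between the late and the early mean it was 0.53 for 1381874_at and 1.90 for 1375153_at of Sox2, 0.42 for 1376672_at and 1.03 for 1381417_at of Prox1, 1.2505 for Pitx3, and 0.37 for Six3. The numbers in the array names lie close together within each of the pairs 2 and 4 hr and 12 and 24 hr, and far apart between the phases.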

How the results depend on the processing

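Of the 29 called changes of the members, 11 kept their call and direction under every alternative that could be fitted, and none changed direction. Over these 29 changes and their 609 values under alternatives, 516 kept the call and 93 lost it. The 55 changes not called had 1142 such values, of which 1096 stayed uncalled, 44 gained a call, and 2 gained one with the sign turned. The brightest probe set of Sox2, not called at 4 hr against 0 hr (0.09) or late against early (−0.08), turned to −0.51 and 0.66 with the mean of all probe sets of the gene, and was called in both. The count of members called at 4 against 2 hr, 1, was 3 with unadjusted p, 2 with a trended and robust prior, with the methods' analysis of variance and with the Actb covariate, and 0 with the compared groups alone or the mean of all probe sets. With the methods' analysis of variance it was 5, against 3, at 2 hr, and 1, against 3, at 24 against 12 hr. With the Actb covariate it was 1, against 3, at 2 hr, 2, against 4, at 24 hr, and 1, against 3, at 24 against 12 hr. On leaving out single arrays it lay between 1 and 3 at 2 hr, 2 and 4 at 4 hr, 1 and 3 at 12 hr, 1 and 4 at 24 hr, 0 and 1 at 4 against 2 hr, 1 and 3 at 24 against 12 hr, and 2 and 3 late against early. A time that keeps 1 array is assumed to vary like the others.

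Arrays with the same replicate number correlated in their deviations by −0.15 to 0.33, above 0.1 only at 2 and 4 hr, so the number was not taken as a pairing. With a replicate block, 80 of 84 changes stayed as they were, called or not called. The calls of Hsf4 at 4 hr (0.30) and 12 hr (0.29) and of Six3 at 24 against 12 hr (−0.67) were lost. A call of Foxe3 at 4 hr (−0.51) was gained. Without the dimmest 1 in 3 probe sets, Sox1, Hsf4, and 1389826_at of Sox2 had no value. Arrays carry no depth, and the dim signals of Sox1, Hsf4, and 1389826_at limit what can be read from them. The causes of these changes were not tested.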
